A study of Caenorhabditis elegans with 3 samples.

Results

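Fatty acid activation and beta-oxidation genes of Caenorhabditis elegans were taken as every array feature with a single gene whose symbol begins with acs, acdh, acox, ech, cpt, hacd or maoc. The rule found 56 genes among 19300 genes and unnamed features with a value on every array. RefSeq lists 61 genes under these prefixes, of which acdh-10, acs-13, cpt-1, cpt-3 and ech-7 were not analysed here. One of the 56, acs-23, is listed by RefSeq as a pseudogene.

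Each of 3 two-colour arrays set RNA from hermaphrodites of a stage or sample named TP10, adults with embryos, beside RNA of a wild-type mixed reference. The labels give no genotype, age or food for TP10 and do not say what was mixed. The RNA came from 3 numbered preparations that nothing in the labels ties to separate cultures. A p-value therefore rests on the spread between preparations, which may be technical. In the fit that spread is partly pooled over all genes, so it is not only the gene's own. A value below is the log2 ratio of TP10 over reference after each array was centred on its median, so 1 means a doubling relative to the median gene. No dye is named, so this direction is likely and not settled; turned round, every higher gene would be lower at the same size.

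Fatty acids are used only after an acyl-CoA synthetase (the acs genes) has joined them to coenzyme A. Carnitine palmitoyltransferases (cpt) then hand long chains to mitochondria, where each turn of beta-oxidation begins with an acyl-CoA dehydrogenase (acdh), or they enter peroxisomes, where an acyl-CoA oxidase (acox) starts the turn. Enoyl-CoA hydratases (ech and maoc) and hydroxyacyl-CoA dehydrogenases (hacd) follow, and a thiolase releases the shortened chain. In the worm the peroxisomal chain also trims the side chains of ascarosides, the dauer pheromones, and the mitochondrial genes include responders to fasting and to vitamin B12.

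The direction varied between the symbol families, and the difference between families was not tested. Among 22 acyl-CoA synthetase genes 10 were lower in TP10 and 3 higher, and acs-2 was the lowest at -4.93 ± 0.32 log2 (SD, n = 3). Among 12 acyl-CoA dehydrogenase genes 8 were higher and 2 lower, and acdh-1 was the highest at 2.64 ± 0.74. Of the 56 genes, 33 (58.9%) passed an adjusted p of 0.05 in limma, 18 higher and 15 lower. Over all 19300 tested, 43.9% passed, 22% higher and 21.9% lower, against 32.1% and 26.8% of the 56. At least 2-fold and past the threshold were 7 higher genes (12.5%) and 5 lower genes (8.93%), where all genes gave 8.29% and 8.30%. The median over the 56 was 0.05 log2 and the median size of a ratio was 0.49, beside 0.0083 and 0.35 over everything tested.

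**Figure D1:**
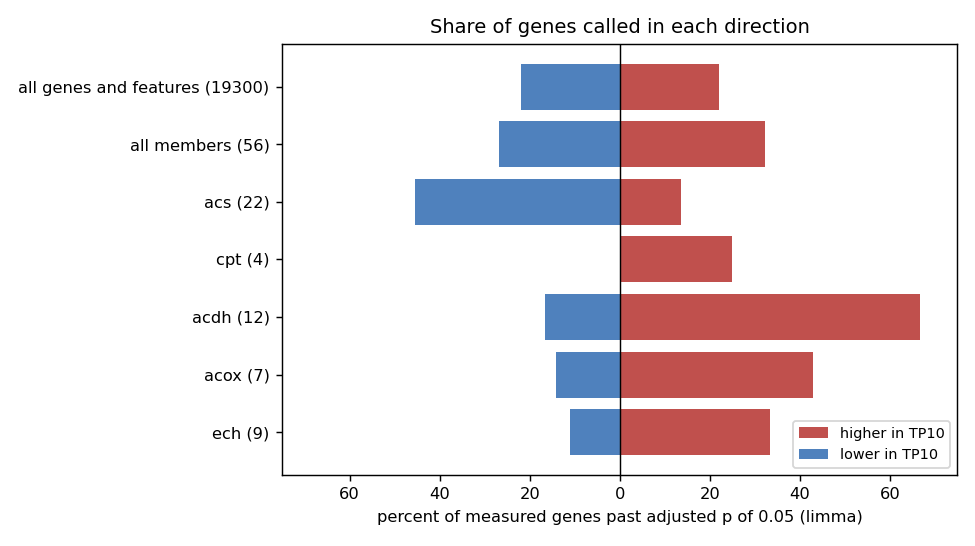
Share of measured genes past an adjusted p of 0.05 (limma) that were higher (right) or lower (left) in TP10, in percent, with the number measured in brackets. The acs bar is longer on the lower side (45.5%) and the acdh bar on the higher side (66.7%), while all genes give 22% and 21.9%.

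Across the 56 genes Pearson's r was 0.917 for arrays 1 and 2, 0.924 for 1 and 3, and 0.971 for 2 and 3, beside 0.862, 0.850 and 0.898 over everything tested. These values describe genes on shared reference RNA and carry no test. The sign was the same on all arrays for 47 genes (83.9%), against 67.3% of everything tested. The SD of the 56 ratios was 1.1 on array 1, 1.14 on array 2 and 1.11 on array 3, whereas over all genes array 3 was the narrowest at 0.674 against 0.889 and 0.848. The single gene acs-2, between -5.23 and -4.60, lies far from the rest and weighs heavily on r and SD of the 56. Neither was computed without it.

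Markers showed what else moved in these whole-animal RNAs. Of 10 oocyte and embryo markers 8 were higher and none lower, with array medians of 2.12, 1.92 and 1.47, and 2 did not pass (cpg-2 at 0.26 and egg-1 at -0.23). Of 6 measured genes listed for starved or dauer larvae 4 were lower and none higher, with array medians of -1.09, -2.01 and -1.56. The lower ones were hsp-12.6 at -4.30, dod-3 at -3.07, cut-1 at -2.35 and, by less, ins-7 at -0.75. daf-9 at 0.39 and lea-1 at 0.089 did not pass. How well each of the 6 marks such larvae was not tested, so the count is no measure of their number. Of 8 yolk and intestine markers 4 were higher and 1 lower, with array medians of 0.60, 0.47 and 0.37. Of 5 body wall muscle markers none passed in either direction (limma), and none had an unadjusted p under 0.05. Of 5 epidermal markers 2 were higher and 2 lower, of 5 neuronal markers 2 were lower, and of 5 sperm markers 3 were lower. The part of these tissues and stages in the ratios below was not tested, and fewer cells of a type cannot be told apart from less RNA per cell.

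**Figure D2:**
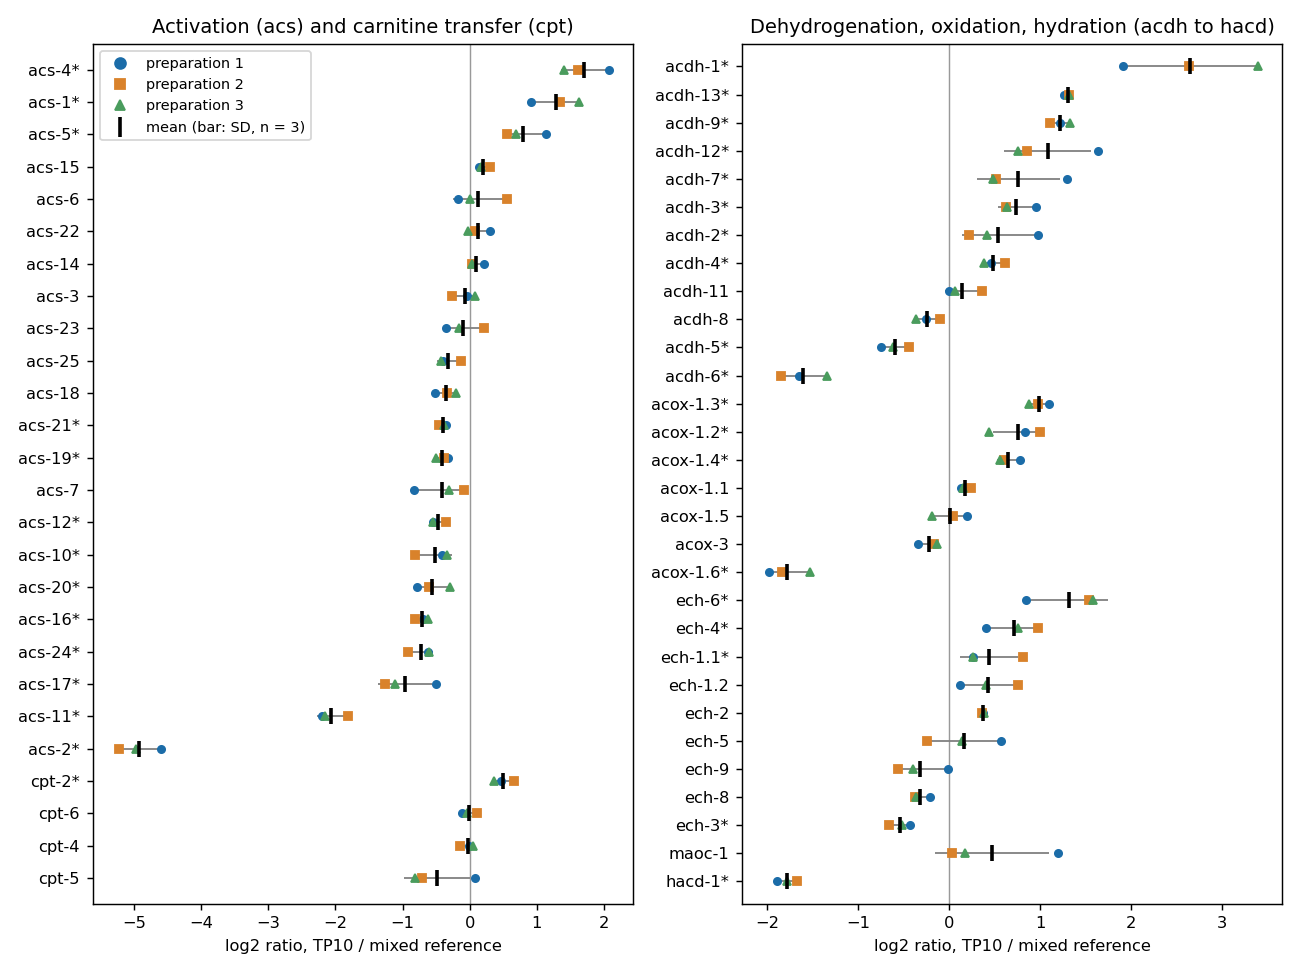
Log2 ratio of TP10 over reference for each of the 56 genes, 1 point per preparation, with the mean as a black tick and the SD as a grey bar (n = 3). An asterisk marks an adjusted p under 0.05 (limma). The 3 points of acs-2 lie between -5.23 and -4.60 and those of acdh-1 between 1.91 and 3.39.

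Activation genes came first in the pathway and held the lowest ratio. The 10 lower acs genes were 45.5% of those measured and the 3 higher ones 13.6%, 9 did not pass, and the median was -0.38 log2. acs-2 encodes a mitochondrial acyl-CoA synthetase known as a fasting-induced target of the nuclear receptor NHR-49. Its ratio was -4.60, -5.23 and -4.97 on arrays 1, 2 and 3. The 3 values lay within 1 log2 unit of each other and gave a mean of -4.93 ± 0.32 (SD, n = 3), which is 30.6-fold lower (limma, adjusted p = 1.58e-07). Only 0.0155% of all genes and features had a lower mean. nhr-49 itself had a ratio of -0.035 ± 0.14 and did not pass (adjusted p = 0.870).

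The next lowest synthetase gene was acs-11, at -2.20, -1.81 and -2.16. Its mean of -2.06 ± 0.22 (SD, n = 3) was 4.16-fold lower (limma, adjusted p = 7.06e-06). No value of acs-11 came within 2 log2 units of any value of acs-2. After these came 8 smaller decreases, from acs-17 at -0.96 ± 0.40 through acs-24 at -0.72, acs-16 at -0.71, acs-20 at -0.56, acs-10 at -0.52, acs-12 at -0.48 and acs-19 at -0.41 to acs-21 at -0.40. acs-20 and its relative acs-22 encode fatty acid transport protein homologs needed for the cuticle barrier. acs-22, unlike acs-20, did not pass and stood at 0.12 ± 0.17 (adjusted p = 0.544). The difference between them was not tested.

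Several of the smaller decreases depended on 1 preparation. Without preparation 2 the calls of acs-20, acs-10, acs-19 and acs-21 were lost, with adjusted p of 0.0574, 0.184, 0.140 and 0.195. Without preparation 3 those of acs-12, acs-19 and acs-21 were lost, with adjusted p of 0.0900, 0.177 and 0.127. Their means without those preparations stayed between -0.54 and -0.36.

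The 3 higher synthetase genes were acs-4, acs-1 and acs-5. acs-4, a relative of the mammalian long-chain synthetases, had ratios of 2.07, 1.61 and 1.4 and a mean of 1.70 ± 0.34 (SD, n = 3), or 3.24-fold higher (limma, adjusted p = 3.24e-05). acs-1, which activates branched-chain fatty acids made by the worm, had ratios of 0.91, 1.34 and 1.62 and a mean of 1.29 ± 0.36, or 2.44-fold higher (adjusted p = 0.000167). Preparation 1 was the highest of the 3 for acs-4 and the lowest for acs-1. acs-5 stood at 0.80 ± 0.30 with values from 0.56 to 1.14 (adjusted p = 0.00227). No value of any other acs gene exceeded 0.56.

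The other 9 synthetase genes ranged from -0.41 to 0.20. They included acs-7, a peroxisomal synthetase of ascaroside assembly, at -0.41 ± 0.38 (adjusted p = 0.0789). Its value was -0.83 on array 1 against -0.084 and -0.31 on the others. It passed without preparation 2 (mean -0.57, adjusted p = 0.0456) and stood at -0.19 without preparation 1. acs-18 was at -0.36, acs-25 at -0.32, the pseudogene acs-23 at -0.10 and acs-3, whose loss is known to alter fat storage through the receptor NHR-25, at -0.077. On the positive side were acs-14 at 0.089, acs-22, acs-6 at 0.13 and acs-15 at 0.20.

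Of the 4 carnitine transfer genes measured, 1 was higher and 3 did not pass. cpt-2, the homolog of the inner-membrane carnitine palmitoyltransferase, had ratios of 0.46, 0.66 and 0.36 and was higher at 0.49 ± 0.15 (SD, n = 3; limma, adjusted p = 0.0177). That call was lost without preparation 2, where the mean was 0.41 (adjusted p = 0.146). cpt-5 had 0.074 on array 1 against -0.71 and -0.82 on arrays 2 and 3, so its mean of -0.49 ± 0.49 did not pass (adjusted p = 0.0592). Without preparation 1 it was -0.76 and passed (adjusted p = 0.00378), and without preparation 3 it was -0.32 and did not (adjusted p = 0.285). cpt-4 and cpt-6 stood at -0.032 ± 0.10 and -0.015 ± 0.12.

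Genes of the acdh family stood mostly higher. Of 12 acdh genes 8 were higher (66.7%), 2 lower (16.7%) and 2 did not pass, with a median of 0.64 log2. acdh-1 encodes a short-chain and branched-chain acyl-CoA dehydrogenase that opens the propionate shunt and is widely used as a reporter of vitamin B12 status. Its ratios were 1.91, 2.63 and 3.39, all above every other value among the 56 genes except the 2.07 of acs-4 on array 1. Their spread was wide, and the mean of 2.64 ± 0.74 (SD, n = 3) was 6.25-fold higher (limma, adjusted p = 2.06e-05). Leaving out 1 preparation or changing the scaling gave means from 2.27 to 3.01.

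A group of 3 further dehydrogenase genes was at least 2-fold higher. acdh-13 had ratios of 1.26, 1.31 and 1.32 and a mean of 1.3 ± 0.028 (SD, n = 3; limma, adjusted p = 5.34e-05). acdh-9 had ratios of 1.22, 1.11 and 1.33 and a mean of 1.22 ± 0.11 (adjusted p = 8.69e-05). acdh-12 had ratios of 1.63, 0.85 and 0.76 and a mean of 1.08 ± 0.48 (adjusted p = 0.000947). The preparations nearly coincided for acdh-13 and acdh-9, while preparation 1 stood above the other two for acdh-12.

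Smaller increases were seen for acdh-7 at 0.76 ± 0.46, acdh-3 at 0.73 ± 0.19, acdh-2 at 0.54 ± 0.40 and acdh-4 at 0.48 ± 0.12 (SD, n = 3). For acdh-7 and acdh-2 preparation 1 was again far above the rest, at 1.29 and 0.98. Without it acdh-7 was at 0.50 and still passed (adjusted p = 0.0263), and acdh-2 was at 0.32 and did not (adjusted p = 0.135). The acdh-4 call was lost without preparation 2 (mean 0.42, adjusted p = 0.134).

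The 2 lower dehydrogenase genes were acdh-6 and acdh-5. acdh-6 had ratios of -1.65, -1.85 and -1.34, so its mean of -1.61 ± 0.26 (SD, n = 3) was 3.06-fold lower (limma, adjusted p = 2.90e-05). acdh-5 was at -0.60 ± 0.16 with values from -0.75 to -0.44 (adjusted p = 0.00645). Both were below 0 and the 8 higher genes above 0 on every array, a separation that largely follows from grouping them by call. acdh-11, whose product is known to restrain the desaturase gene fat-7 by binding fatty acids, stood at 0.14 ± 0.19, and acdh-8 at -0.24 ± 0.13, both short of the threshold.

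Of 7 peroxisomal oxidase genes 3 were higher, 1 lower and 3 did not pass. acox-1.1, acox-1.2, acox-1.3 and acox-1.4 follow each other directly on chromosome I with no protein-coding gene between them in RefSeq. acox-1.3 had ratios of 1.1, 0.98 and 0.88 and a mean of 0.99 ± 0.11 (SD, n = 3; limma, adjusted p = 0.000302). acox-1.2 at 0.76 ± 0.28 and acox-1.4 at 0.64 ± 0.12 were also higher (adjusted p = 0.00279 and 0.00392). acox-1.1, known for its central part in shortening ascaroside side chains, had 0.13, 0.24 and 0.15 and did not pass at 0.17 ± 0.056 (adjusted p = 0.350). On every array acox-1.1 lay below each of the other 3.

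Each of these 4 genes was measured by 2 features whose means differed by 0.012 for acox-1.1, 0.019 for acox-1.2, 0.21 for acox-1.3 and 0.00099 for acox-1.4. The step in the mean from acox-1.1 to each of the other 3 was larger than any of these differences between feature means. On single arrays the 2 features of a gene could lie further apart. On array 2 they were 0.69 and 1.27 for acox-1.3 and 1.18 and 0.81 for acox-1.2. On every array both features of acox-1.1 still lay below each feature of the other 3 genes. The genes are close relatives, and how far their features share target RNA is not given in the sources used here.

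Outside the cluster, acox-1.6 on the X chromosome was lower, with ratios of -1.98, -1.84 and -1.53. Its mean of -1.78 ± 0.23 (SD, n = 3) was 3.44-fold lower (limma, adjusted p = 1.52e-05). It was the sole oxidase gene of the 7 past the threshold in that direction. acox-1.5 stood at 0.011 ± 0.19 and acox-3 at -0.22 ± 0.11, neither past the threshold.

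**Figure D3:**
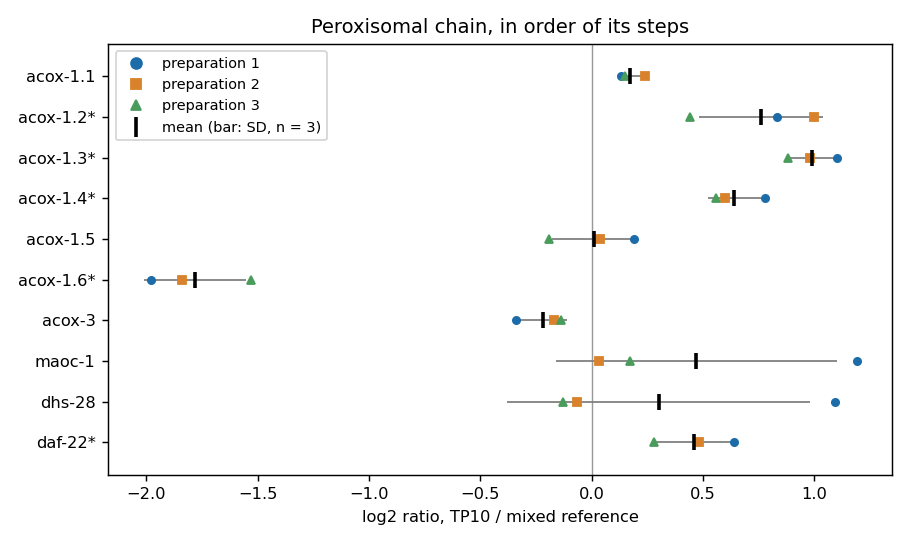
Log2 ratio of TP10 over reference for 7 acyl-CoA oxidase genes and the genes of the next peroxisomal steps, 1 point per preparation, with the mean as a black tick and the SD as a grey bar (n = 3). An asterisk marks an adjusted p under 0.05 (limma). acox-1.6 lies between -1.98 and -1.53, and maoc-1 and dhs-28 have 1 point near 1.1 to 1.2 and the others near 0.

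The high values of maoc-1 and dhs-28 came from preparation 1 alone. maoc-1, the enoyl-CoA hydratase of the ascaroside chain, had 1.19 on array 1 and 0.034 and 0.17 on arrays 2 and 3. Its mean of 0.47 ± 0.63 (SD, n = 3) did not pass (limma, adjusted p = 0.107), and it was 0.10 without preparation 1. Without preparation 2 it was 0.68 and passed (adjusted p = 0.0256). dhs-28, the hydroxyacyl-CoA dehydrogenase that follows, showed the same arrangement, with 1.09, -0.064 and -0.13 (adjusted p = 0.320). daf-22, the thiolase that ends the chain, had 0.64, 0.48 and 0.28 and was higher at 0.46 ± 0.18 (adjusted p = 0.0252). maoc-1 lies next to acdh-12 on chromosome II, and array 1 was the highest for that gene too.

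Hydratase genes of the ech family passed about as often as everything tested, at 44.4% against 43.9%. Of 9 ech genes 3 were higher (33.3%), 1 lower (11.1%) and 5 did not pass, with a median of 0.37 log2. ech-6, the enoyl-CoA hydratase of the propionate shunt, had 0.84, 1.54 and 1.58. Its mean of 1.32 ± 0.42 (SD, n = 3) was 2.50-fold higher (limma, adjusted p = 0.000196), with preparation 1 below the other two. ech-4 was higher at 0.71 ± 0.29 with values from 0.40 to 0.97 (adjusted p = 0.00424).

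ech-1.1 and ech-1.2 encode versions of the mitochondrial trifunctional protein's alpha subunit and had nearly equal ratios. ech-1.1 had 0.26, 0.81 and 0.26 and just passed at 0.44 ± 0.32 (limma, adjusted p = 0.0477), a call lost without preparation 2 (mean 0.26, adjusted p = 0.386) or 3 (mean 0.53, adjusted p = 0.0551). ech-1.2 had 0.12, 0.76 and 0.40 and just missed at 0.43 ± 0.32 (adjusted p = 0.0550). Without preparation 1 ech-1.2 passed at 0.58 (adjusted p = 0.0198), and without preparation 2 it stood at 0.26 (adjusted p = 0.387). ech-2 had 0.37, 0.36 and 0.38, a spread of 0.011 SD, and its mean of 0.37 was also just short (adjusted p = 0.0509). ech-2 passed with the values as deposited (adjusted p = 0.0491), with mean centring, quantile normalization, one spread and array weights. It also passed under the SD filter, which selects on the variance that limma models. Its adjusted p ranged up to 0.182 in the other moderated settings.

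The lower hydratase gene was ech-3, with ratios of -0.43, -0.66 and -0.52 and a mean of -0.54 ± 0.12 (SD, n = 3; limma, adjusted p = 0.0106). Without preparation 2 it was -0.47 and the call was lost (adjusted p = 0.0869). The neighbouring genes ech-8 and ech-9 on chromosome IV both stood at -0.32, with adjusted p of 0.0920 and 0.122. ech-9 passed without preparation 1 (mean -0.48, adjusted p = 0.0332) and stood at -0.21 without preparation 2 (adjusted p = 0.509). ech-5 had values on each side of 0, at 0.57, -0.24 and 0.14.

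The single hacd gene, hacd-1, encodes a hydroxyacyl-CoA dehydrogenase and was among the lowest of the 56. Its ratios of -1.89, -1.67 and -1.78 differed little, and the mean of -1.78 ± 0.11 (SD, n = 3) was 3.43-fold lower (limma, adjusted p = 1.09e-05). acs-2, acs-11, acox-1.6, hacd-1 and acdh-6 were the 5 genes at least 2-fold lower. Of these acs-2 and acs-11 are synthetase genes. acox-1.6 and acdh-6 belong to the families that start a turn in peroxisomes and in mitochondria.

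Other enzymes and carriers tied to beta-oxidation, outside the 56 genes, were mostly higher. Of 14 measured from a list of 17, which shares hach-1 with the propionate list, 10 were higher, 2 lower and 2 did not pass, with a median of 0.56 log2. That was 71.4% higher and 14.3% lower, against 22% and 21.9% of everything tested. ivd-1, the isovaleryl-CoA dehydrogenase of leucine breakdown, stood at 1.39 ± 0.29 (SD, n = 3). The thiolase gene kat-1 had 0.96, 1.48 and 1.27 and a mean of 1.23 ± 0.26 (limma, adjusted p = 0.000133), and a further thiolase gene, acaa-2, stood at 1.18 ± 0.095. The genes that carry electrons from acyl-CoA dehydrogenases to the respiratory chain were all 3 higher, etfa-1 at 0.86, etfb-1 at 0.57 and let-721 at 0.54. The 2 lower genes were decr-1.1 at -0.57 ± 0.088 and decr-1.2 at -0.51 ± 0.49, named for the dienoyl-CoA reductases of unsaturated chains. acaa-2, the electron carrier genes and the decr genes were named after their values were seen.

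Propionate breakdown genes were called in both directions. Propionyl-CoA, left by odd-chain fatty acids and some amino acids, is normally carboxylated and turned into succinyl-CoA with vitamin B12, and when that route is limited the worm uses a shunt that acdh-1 and ech-6 begin. Of the 5 shunt genes 4 were higher, all by at least 2-fold (80%, against 8.29% of everything tested). Beside acdh-1 and ech-6 these were hach-1, the hydrolase of the next step, at 1.70, 1.00 and 1.29 with a mean of 1.33 ± 0.35 (SD, n = 3; limma, adjusted p = 0.000135), and hphd-1, the transhydrogenase after it, at 0.50, 1.16 and 1.66 with a mean of 1.11 ± 0.58 (adjusted p = 0.00144). alh-8, the dehydrogenase of the last step, had 0.014, -0.10 and 0.11 and did not pass.

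On the vitamin B12-dependent route 3 of 6 measured genes were lower and 1 higher (50% and 16.7%, against 21.9% and 22% of everything tested). mce-1, the methylmalonyl-CoA epimerase, had -1.44, -1.35 and -1.43 and a mean of -1.41 ± 0.045 (SD, n = 3; limma, adjusted p = 3.49e-05). The carboxylase subunit genes pccb-1 and pcca-1 were lower at -0.62 ± 0.19 and -0.42 ± 0.16 (adjusted p = 0.00594 and 0.0373). mmcm-1, the mutase that uses the vitamin, was higher at 0.60 ± 0.31 (adjusted p = 0.0108). mmaa-1 and mmab-1, which handle the cofactor, stood at 0.32 ± 0.14 and 0.57 ± 0.67 and did not pass. On every array acdh-1, ech-6, hach-1 and hphd-1 were above 0. Of the 6 genes of the B12-dependent route 3 were above 0 on every array (mmcm-1, mmaa-1 and mmab-1) and 3 below (pcca-1, pccb-1 and mce-1), with a median of -0.049. The difference between the routes was not tested. Preparation 1 was the lowest of the 3 for acdh-1, ech-6 and hphd-1 and the highest for hach-1. The genes of both routes other than acdh-1, ech-6, hach-1 and mce-1 were named after their values were seen.

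**Figure D4:**
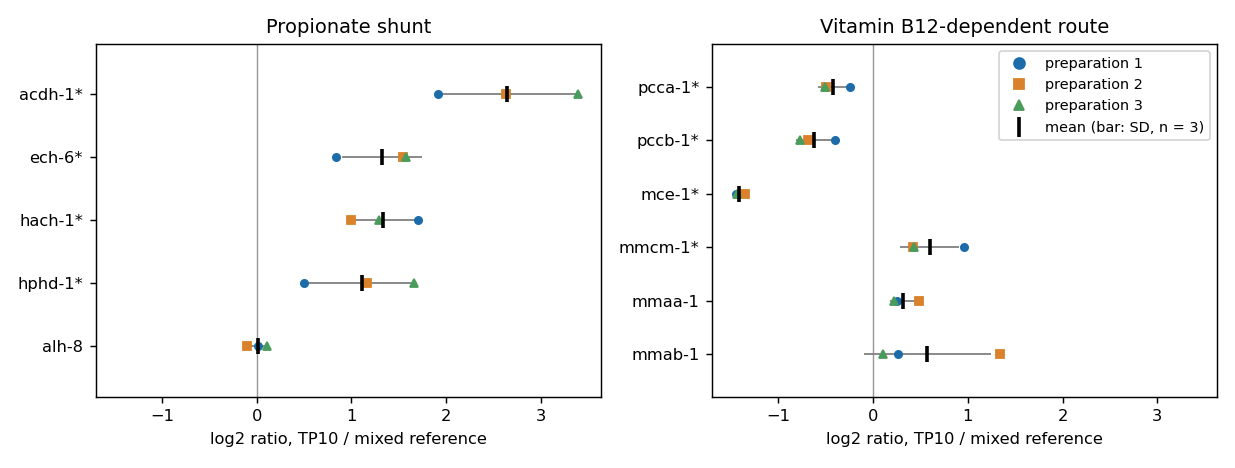
Log2 ratio of TP10 over reference for the measured genes of the propionate shunt (left, in the order of its steps) and the vitamin B12-dependent route (right), 1 point per preparation, with the mean as a black tick and the SD as a grey bar (n = 3). An asterisk marks an adjusted p under 0.05 (limma). In the shunt 4 of 5 genes lie above 0 on every array, and on the right mmcm-1, mmaa-1 and mmab-1 lie above 0 and pcca-1, pccb-1 and mce-1 below 0 on every array.

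Of 17 measured regulators and fat synthesis genes 5 passed (29.4%, against 43.9% of everything tested), 2 higher and 3 lower. Their median was 0.029 log2 and the median size of a ratio 0.34. The acetyl-CoA carboxylase gene pod-2 was higher at 1.09 ± 0.54 (SD, n = 3; limma, adjusted p = 0.00128), with 1.71 on array 1 and 0.69 and 0.88 on the others. nhr-10, a receptor gene known to be needed for acdh-1 expression in the shunt response, was lower at -0.84 ± 0.20 (adjusted p = 0.00102), and the steroid receptor gene daf-12 at -0.79 ± 0.43 (adjusted p = 0.00441). nhr-68, which acts with nhr-10 in that response, was named after its value was seen and had -0.80 on array 1 against 0.28 and 0.29. mdt-15, the Mediator subunit gene that works with NHR-49, stood at 0.41 ± 0.28 (adjusted p = 0.0544) and nhr-80 at 0.12 ± 0.42 (adjusted p = 0.634).

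Peroxisome genes passed about as often as everything tested, at 41.2% against 43.9%. Of 17 measured peroxins, pmp genes and ctl-2, 3 were higher (17.6%), 4 lower (23.5%) and 10 did not pass, with a median of -0.02 log2. Over everything tested 22% were higher and 21.9% lower. The peroxin genes prx-2 and prx-5, the latter encoding the receptor that imports most matrix enzymes, were lower at -1.26 ± 0.31 and -0.62 ± 0.31 (SD, n = 3; limma, adjusted p = 0.000153 and 0.00951). The ABC transporter gene pmp-3 was higher at 0.72 ± 0.18 (adjusted p = 0.00240). Over these 4 lists without the 56 genes, 29 of 56 passed (51.8%), 17 higher and 12 lower, against 43.9% of everything tested.

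The 56 genes lie on all 6 chromosomes, and the calls by chromosome are a description with no test. Of 13 genes on chromosome V 6 were lower and 2 higher (median -0.40 log2), and of 11 on chromosome I 6 were higher and 3 lower (median 0.48). The 6 higher genes on chromosome I were acdh-1, acdh-3, acdh-4 and 3 genes of the acox cluster, which share a family or a neighbourhood. The 6 lower genes on chromosome V were acs-2, acs-10, acs-12, acs-21, ech-3 and hacd-1, most of them of the acs family. Over everything tested 22% were higher and 21.9% lower, and the shares over all genes of a chromosome were not computed. Chromosome II held 10 genes with 4 higher and 1 lower, III held 8 with 3 and 2, IV held 10 with 2 and 1, and X held 4 with 1 and 2.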

How the data were processed

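The authors deposited a log2 ratio of the 2 channels for 20000 features on each of 3 arrays; the scale was read from the values, since 2 raised to a value gave whole thousandths (tolerance 0.01) in at least 99.98% of cases. Array medians lay between -0.00868 and 0.0172, so the deposited values were already centred. Background correction, spot filters and normalization are not given in the sources used here. Spot intensities were not used, so which features were above background or saturated is unknown, and precision is limited by there being 3 arrays.

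Of the features, 15655 had 1 gene in the platform annotation, 198 several and 4147 were not listed; 15569 matched RefSeq (assembly WBcel235), which gave symbols, chromosomes and gene order. The 19748 features with a value on all 3 arrays were averaged per gene on the log2 scale, which left 19300, and each array was centred on its median. The 56 genes rest on 60 features.

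A two-sided limma fit (version 3.58.1, R 4.3.3) with only an intercept and moderated variances compared each mean ratio with 0. The p-values were adjusted by Benjamini-Hochberg across the 19300, and 0.05 was the threshold. The script was tested on simulated data. The reference has no replicates and no array with exchanged dyes is named, so its spread and any dye bias are not in the error. Array, preparation and date cannot be told apart.

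The members, the 4 lists of other pathway genes, the markers and the tests were chosen with earlier results of these data known. The naming rule allows every member and gives array values for members past the threshold and at least 2-fold, for the extremes of each family and for acdh-1 and ech-6. From each other list it takes the 3 largest changes past the threshold, plus daf-22, dhs-28, kat-1, nhr-49, mdt-15 and nhr-80. The other array values were added after they were seen. The 13 alternatives changed the centring, the scaling, the missing values, the filter, the features per gene, the variance model or the preparations used.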

Additional observations from a re-analysis of the deposited data

How the results depend on the processing

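Of the 56 genes 33 passed in limma, and between 32 and 38 passed under 9 other settings. These left the deposited values uncentred, centred on means, used quantile normalization or one spread, admitted genes with 2 values, dropped the 10% of genes with the largest SD (52 of the 56 tested), kept features apart, or used robust eBayes or array weights. Under 1 or more of these settings acs-7, acs-18, cpt-5, ech-1.2, ech-2 and ech-9, which had not passed, did so, and ech-1.1 lost its call (adjusted p = 0.0513 with genes of 2 values admitted). Dropping the genes of largest SD selects on the variance that limma models. It gave acs-2 an adjusted p of 7.93e-248 from 3 arrays, so p-values under that filter are no guide to certainty. Without preparation 1, 2 or 3 the count was 35, 27 or 29, of which 32, 25 and 29 were among the 33. The 12 genes at least 2-fold apart kept an adjusted p of 0.00292 or less in every setting that tested them, other than the unmoderated test, and 10 of the 33 lost the call without 1 preparation. The unmoderated one-sample test (2 degrees of freedom) called 0 of the 56 genes (0 higher, 0 lower; smallest adjusted p = 0.0854), although 29 had an unadjusted p under 0.05, 16 higher and 13 lower. It called 0 of the 56 other pathway genes (0 higher, 0 lower; 20 at an unadjusted p under 0.05) and 1 of all 19300 (0 higher, 1 lower). No called member changed sign in any setting. No paired analysis was possible because there is a single group of preparations. Signal over background was not used here.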

Other observations

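Among the 56 genes, 11 had 1 array at least 0.5 log2 away from the nearer of the other arrays. In 6 of these array 1 was above the others (acs-17, cpt-5, maoc-1, acdh-2, acdh-7 and acdh-12) and in 2 below (acs-7 and ech-6). In 2 array 2 was above (acs-6 and ech-1.1), and in 1 array 3 was above (acdh-1, whose 3 values were nearly evenly spaced). The widest of these gaps was 1.02 for maoc-1. Of the 56 other pathway genes 13 had such a gap, 9 of them on array 1, including dhs-28 (1.15), nhr-68 (1.08) and pod-2 (0.83). These genes were chosen after their values were seen.

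The peroxisomal transporter gene pmp-2 had -0.72 and -0.45 on arrays 1 and 3 and 3.81 on array 2, a gap of 4.27. Its mean of 0.88 ± 2.54 (SD, n = 3) did not pass (limma, adjusted p = 0.331), and it was named after its values were seen.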
